A study of Mus musculus with 338 samples.

Results

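The genes described here are 31 genes listed as products of the pancreatic acinar cell, measured as RNA in isolated mouse islets. They were picked by symbol from a table of read counts for 21382 genes. They comprise 5 trypsinogens (Prss1, Prss2, Prss3, Try4, Try5), 3 chymotrypsinogens (Ctrb1, Ctrl, Ctrc), 3 elastases (Cela1, Cela2a, Cela3b) and 3 carboxypeptidases (Cpa1, Cpb1, Cpa3). A further 6 digest lipid (Pnlip, Pnliprp1, Pnliprp2, Cel, Clps, Pla2g1b), and 3 are other enzymes: the amylase Amy1, the ribonuclease Rnase1 and the kallikrein Klk1. Spink3, Zg16, Sycn, Gp2 and Cuzd1 are granule or secreted proteins, and Ptf1a, Rbpjl and Bhlha15 are transcription factors. All 31 were in the table and all 31 passed the filter on low counts.

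Each library came from 1 mouse of the strain 129S2/SvPas, A/J, AKR/J, BALB/cJ, C57Bl/6J or DBA/2J, all 6 of them inbred. The mice were fed either regular chow (RC, 166 mice) or a high fat, high sugar diet (HFHS, 172 mice) and their islets were taken at day 2, 10, 30 or 90. Strain, diet and day gave 48 groups of 4 to 11 mice, and no group carried an engineered allele or a drug according to the labels. From each mouse at least 150 islets were lysed, and 200 ng of total RNA went into a polyA library that does not keep the strand.

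Acinar cells surround the islets and make the digestive enzymes of the pancreas. They store the proteases and the phospholipase as inactive zymogens in granules, and trypsin, once activated in the gut, switches these on, whereas amylase, Pnlip and the ribonuclease are stored in active form. Ptf1a and Rbpjl are parts of PTF1, the complex that binds an E-box together with a TC-box in acinar promoters, and Bhlha15 (Mist1) is a factor of secretory cells that organises the granule apparatus. Islets are freed from exocrine tissue by digestion and hand-picking, so an islet preparation usually keeps some acinar RNA.

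The libraries held 9526926 to 50751894 reads in genes (median 25989180), so that 3 reads, the limit that a count of 0 allows, corresponded to 0.0591 to 0.315 CPM (read counts scaled to the same total in every library). In 9 libraries 73 strain marker genes stood closer to another strain than to the labelled one: 4 labelled C57Bl/6J at day 90 and 5 labelled 129S2/SvPas at day 2. In 41 libraries, these 9 included, levels tilted with the exon GC content of the genes by more than 0.5 log2 units per 10 GC points. The 41 lay in 9 of the 24 combinations of strain and day. The main diet and time results are given with and without them. The summary of the score and the strain fits are given with all libraries.

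The members took between 0.0087% and 12% of a library's reads, with a median of 0.479%. The most abundant per length were the chymotrypsinogen Ctrb1, with a median of 793 CPM per kilobase of exon, the triglyceride lipase Pnlip with 429, the elastase Cela2a with 343 and the trypsinogen Prss2 with 341. Colipase (Clps, the cofactor of Pnlip) at 216, Cpa1 at 212 and Cela1 at 202 followed. The trypsinogens Try5 and Try4 stood at 54.4 and 48.2 CPM per kilobase, Ctrc, a chymotrypsinogen that also cleaves trypsinogen, at 39.98, the phospholipase Pla2g1b at 12.2, the trypsin inhibitor Spink3 at 8.67 and Amy1 at 3.53. Amy1 was not the only amylase gene counted: Amy2b, outside the members, had a median of 26.99 CPM, where Amy1 had 7.57. Amy2a5 had no read in 232 libraries. Whether reads were lost or moved between amylase genes in the alignment was not tested, so the amylase total is uncertain.

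The regulators of the acinar programme were rarer. Rbpjl had a median of 0.267 and Ptf1a of 0.143 CPM per kilobase, and Bhlha15, at 31.2, was the exception. The scarcest members were Cpa3 at 0.108 and Prss1 at 0.0458 CPM per kilobase, and 14.2% and 42.01% of the libraries held no read of them. Ptf1a was without a read in 26 libraries, Prss3 in 11, Rbpjl in 8, and Ctrc, Cela3b and Pla2g1b in 1 each.

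Single members differed between mice by orders of magnitude. Cela1 ran from 2.04 to 8228 CPM over all libraries, with a median of 374. Bhlha15 ran only from 17.4 to 217 CPM, with a median of 108.8. To follow the part that the members share, an acinar score was taken for each library: the median, over 12 reference members, of the gene's log2 CPM minus its mean over all libraries. The reference members were split into sets of 6 (Cpa1, Cela2a, Pnlip, Ctrl, Clps and Zg16, and Cpb1, Cela3b, Pnliprp1, Ctrb1, Cel and Sycn), and each reference gene was compared only with the score of the other set, so that no gene entered its own score. In bulk RNA such as this, fewer acinar cells and less RNA per acinar cell cannot be told apart.

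The score spanned 12 log2 units, from -6.90 to 5.12 (SD 1.60 over all mice). Of its variance 61.2% lay among mice of 1 group and 10.4% between strains. The range within a group was above 2 log2 units in 41 of the 48 groups and ran from 1.49 to 6.90. Group medians ran from -2.95 in A/J RC mice of day 10 to 2.73 in C57Bl/6J HFHS mice of day 30. The BALB/cJ HFHS group of day 10 and the 129S2/SvPas RC group of day 30 were also high, at 2.62 and 2.20, and the A/J HFHS groups of days 10 and 2 were low, at -2.22 and -1.88. In A/J, 5 of 11 libraries of day 2 and 5 of 10 of day 10 were among the 41 that tilt with GC content. In BALB/cJ at day 10, 2 of 12 were. The scores of both sets differed by an SD of only 0.243.

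**Figure D1:**
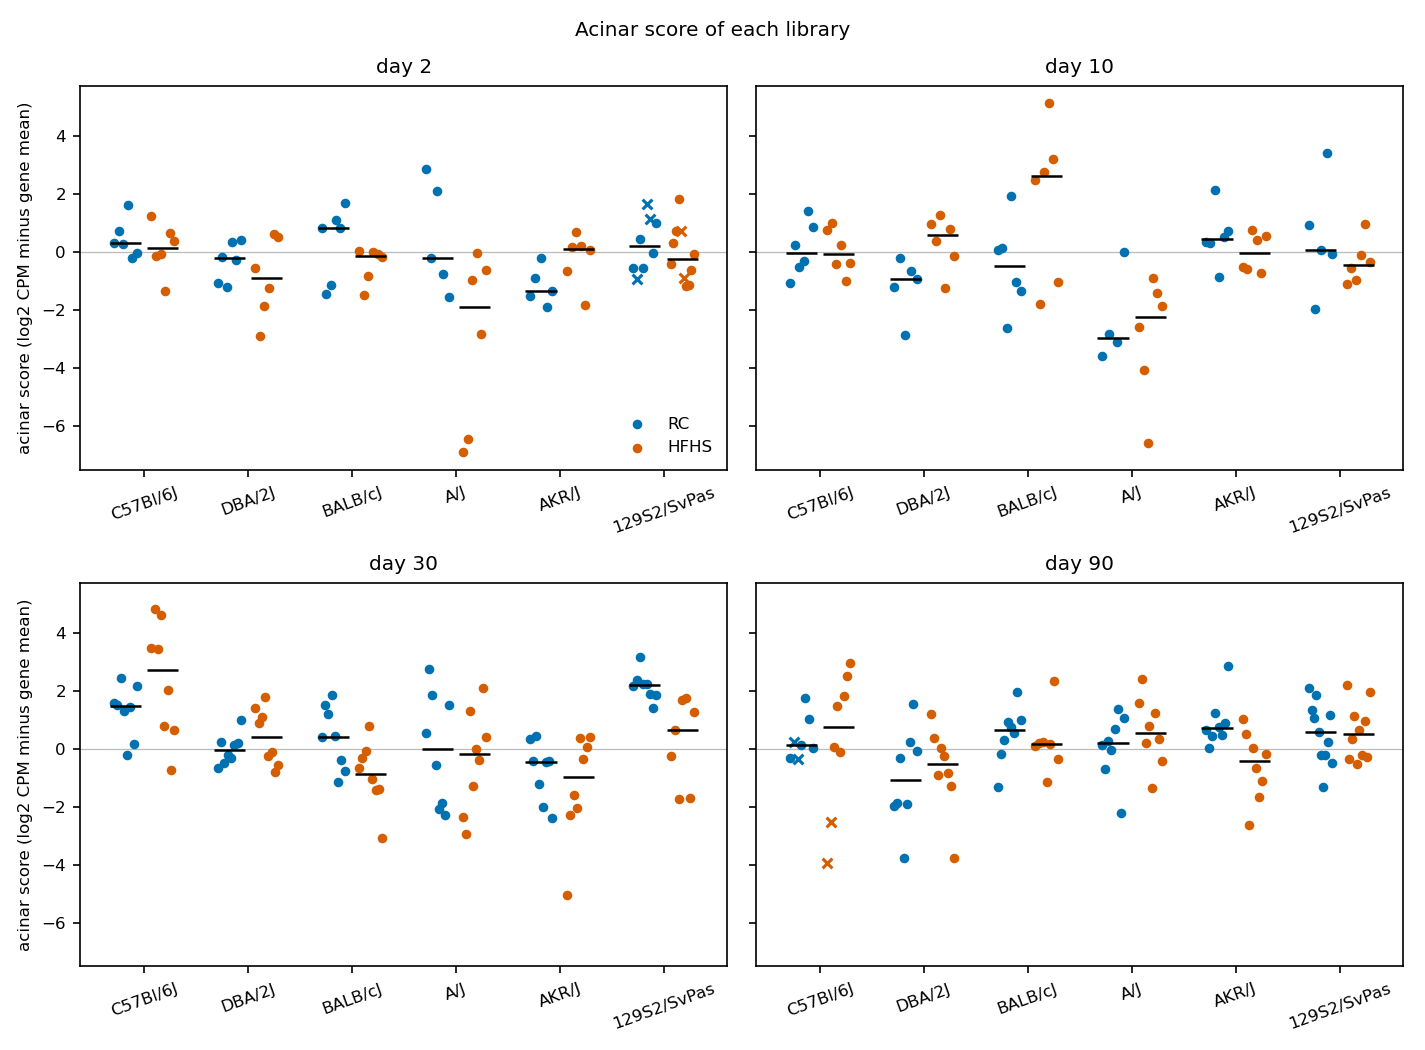
Acinar score (log2 units, y axis) of each mouse, by strain (x axis) in 4 panels by day, with RC in blue on the left and HFHS in orange on the right of each strain; points are mice, lines are group medians and crosses are the 9 libraries closest to a strain other than the labelled one. Most groups overlap, and mice of the same group spread over 1.49 to 6.90 log2 units.

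Most members followed the score among mice of the same group. A straight line on the score took up more than 80% of the within-group variance of 22 of the 31 members, with a median of 89.5% over all 31. The elastase Cela1 (98.4%), the bile salt-stimulated lipase Cel (98.3%), the carboxypeptidase Cpa1 (97.3%), Ctrl (97.03%), Clps (96.9%) and Prss2 (96.8%) led. The SD of Cela1 within groups was 1.32 log2 units, and 0.165 was left after the line. These shares describe mice in 48 groups and carry no test, and the points share their library depth and scaling.

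A set of 6 members followed less tightly. Amy1 had a share of 72.4%, Rbpjl 71.4%, Spink3 71.3%, Ptf1a 58.8%, Ctrc 55.9% and Prss3 51.5%. Of these, Ptf1a, Rbpjl and Prss3 had few reads in most libraries, as did Ctrc in 2 strains described further on. For the 3 members left the share was below 20%: Prss1 with 16.1%, Cpa3 with 4.58% and Bhlha15 with 3.50%. Prss1 and Cpa3 also had few reads, with medians of 0.0368 and 0.156 CPM. Over the other 13566 genes with a mean of at least 1 CPM the median share was 5.73%, and 16 of them exceeded 50%.

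Bhlha15 therefore varied in these preparations apart from the enzymes. Its slope was 0.0552 log2 units per unit of score, and its SD within groups was 0.398. Cpa3 is listed here as acinar and is, as background, a product of mast cells. Its within-group variance was shared more with the mast cell proteases Mcpt4 (53.3%), Cma1 (52.9%) and Tpsb2 (39.6%) than with the score, whereas Kit and Hdc, which mast cells also express, had shares of 0.159% and 0.116%. The other shares were 1.35% for Gata2, 2.64% for Ms4a2 and 15.4% to 23.8% for Mcpt2, Fcer1a and Tpsab1. The 10 mast cell genes listed summed to 7.39 to 58.6 CPM per library. Kit, Gata2 and Hdc had medians of 8.01, 5.36 and 1.85 CPM, where Mcpt4, Cma1 and Tpsb2 had only 0.109, 0.0991 and 0.0872. Prss1 shared 49.0% of its variance with Prss3.

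**Figure D2:**
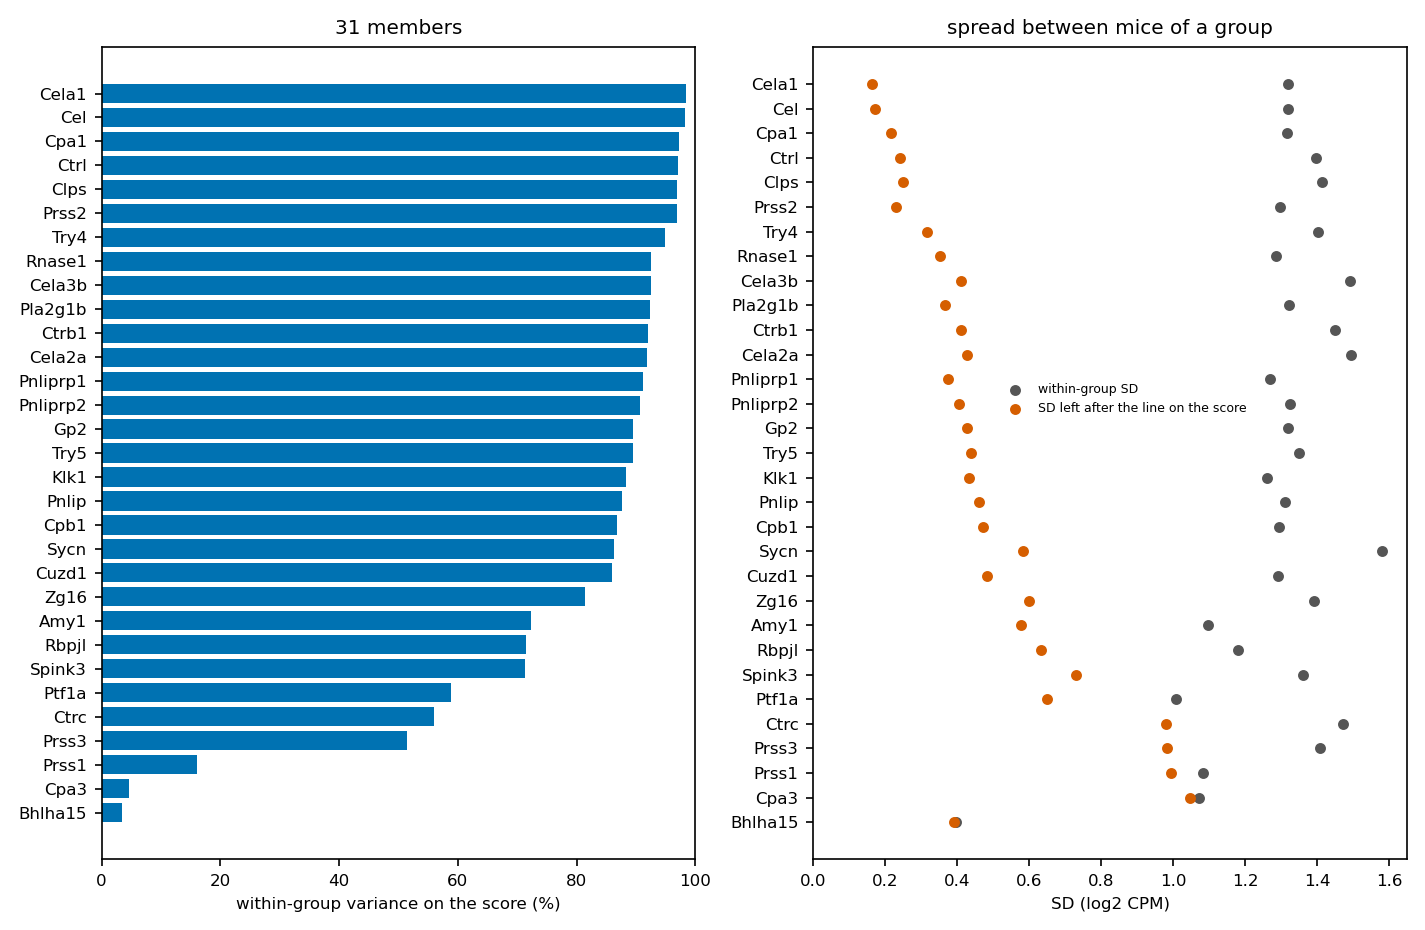
Left, the percentage of each member's within-group variance of log2 CPM taken up by a line on the acinar score; right, each member's within-group SD and the SD left after that line, in log2 units. Bars run above 80% for 22 members, and Prss1, Cpa3 and Bhlha15 are below 20%.

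The promoters of members at both ends of this order are shown because they carry, or lack, the letters that the PTF1 complex is known to bind. The 250 bases before the start were taken from RefSeq on build GRCm38.p6, and 26 of the 31 members matched the table. The E-box letters CACCTG, searched on both strands (CAGGTG on the other), were found in 14 of the 26 members and in 17.2% of 32851 promoters of the same length. The TC-box letters TTTCCC, also searched on both strands, were found in 7 of 26 and in 21.9% of promoters. Both occurred in 5 members (Cel, Cela1, Cela2a, Prss1 and Prss2) and in 3.61% of promoters. Bhlha15 had the first only. The lines give Cela1 (chr15:100687921-100688170, minus strand), Cel (chr2:28563404-28563653, minus strand) and Prss2 (chr6:41521526-41521775, plus strand), which followed the score closely, and then Prss1 (chr6:41458680-41458929, plus strand) and Bhlha15 (chr5:144190036-144190285, plus strand), which did not; each is written 5′ to 3′ toward the gene and capitals mark the matches.
Cela1: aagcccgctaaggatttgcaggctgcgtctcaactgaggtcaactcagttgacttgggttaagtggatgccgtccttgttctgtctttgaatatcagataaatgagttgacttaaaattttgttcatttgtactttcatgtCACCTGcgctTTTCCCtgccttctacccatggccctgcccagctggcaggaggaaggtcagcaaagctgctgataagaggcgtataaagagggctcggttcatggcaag
Cel: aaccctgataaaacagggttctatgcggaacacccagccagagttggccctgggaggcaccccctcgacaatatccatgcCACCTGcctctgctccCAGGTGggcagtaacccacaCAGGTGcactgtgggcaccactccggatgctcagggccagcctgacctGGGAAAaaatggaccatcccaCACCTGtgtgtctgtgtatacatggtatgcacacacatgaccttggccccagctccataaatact
Prss2: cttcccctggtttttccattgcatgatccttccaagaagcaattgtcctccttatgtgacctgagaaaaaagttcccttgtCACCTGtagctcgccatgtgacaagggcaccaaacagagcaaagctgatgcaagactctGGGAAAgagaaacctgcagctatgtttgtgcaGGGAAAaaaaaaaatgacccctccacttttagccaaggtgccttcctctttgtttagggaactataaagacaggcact
Prss1: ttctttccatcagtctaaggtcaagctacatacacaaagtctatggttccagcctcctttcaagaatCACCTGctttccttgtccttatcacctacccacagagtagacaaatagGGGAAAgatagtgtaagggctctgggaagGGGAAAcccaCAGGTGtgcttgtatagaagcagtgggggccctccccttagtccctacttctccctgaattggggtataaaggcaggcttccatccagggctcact
Bhlha15: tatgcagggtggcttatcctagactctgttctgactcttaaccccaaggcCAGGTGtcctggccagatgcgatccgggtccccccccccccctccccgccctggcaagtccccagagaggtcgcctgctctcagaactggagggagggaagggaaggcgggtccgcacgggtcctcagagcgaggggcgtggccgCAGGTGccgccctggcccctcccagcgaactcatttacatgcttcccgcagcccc

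A match here is a run of letters and not a bound site. Prss1 carries both motifs, as Cela1, Cel and Prss2 do, although its RNA followed the score far less than theirs.

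Outside the members the genes closest to the score were acinar as well by their known expression. Among the 10 with the highest shares were Pdia2 (95.3%), a pancreatic protein disulfide isomerase, Tff2 (94.1%), 2210010C04Rik (92.8%), Try10 (87.6%), Dmbt1 (85.9%), Aqp12 (82.1%), Erp27 (82.1%), Amy2b (81.2%) and Reg1 (75.03%). Of a separate list of 24 further acinar genes, 19 were in the table, with a median share of 74.6% and 12 over 50%. Lists of other cells did not follow: the median share was 5.26% for 10 duct genes (highest 33.5%), 5.82% for 9 beta cell genes, 0.931% for 5 alpha cell genes, 0.805% for 7 stellate genes, 8.61% for 5 endothelial genes, 17.03% for 6 macrophage genes and 5.01% for 5 lymphocyte genes. No gene on those lists, the mast cell and adipose ones included, exceeded 50%.

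The strains were then compared on RC, each against the mean of the other 5 with days weighted equally, by edgeR's quasi-likelihood test with Benjamini-Hochberg adjustment over 16498 genes and a threshold of 2-fold. Without the score, 38 of the member by strain comparisons passed, where 3.37% of all gene by strain comparisons did. Of these 22 were members higher in 129S2/SvPas (1.92% of all genes were higher there) and 8 were members lower in DBA/2J (2.98% of all genes lower). Without 1 129S2/SvPas RC mouse of day 10 (replicate 16) 23 comparisons passed. Cela2a, for example, was 1.09 log2 units higher in 129S2/SvPas. With the score in the fit Cela2a was at -0.04 in that strain, and the median over the members moved from 1.2 to 0.25, where the median of all genes was 0.01 in both fits.

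With the score in the fit, 8 member by strain comparisons passed on RC, where 3.35% of all did. They came from 2 genes: Ctrc, in all 6 strains, and Prss3, in BALB/cJ and A/J. On HFHS 47 comparisons passed without the score (3.85% of all) and 12 with it (4.02% of all). Those 12 were the same 8 comparisons in the same directions, Try5 in BALB/cJ and DBA/2J, and Cpa3 in A/J and C57Bl/6J.

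**Figure D3:**
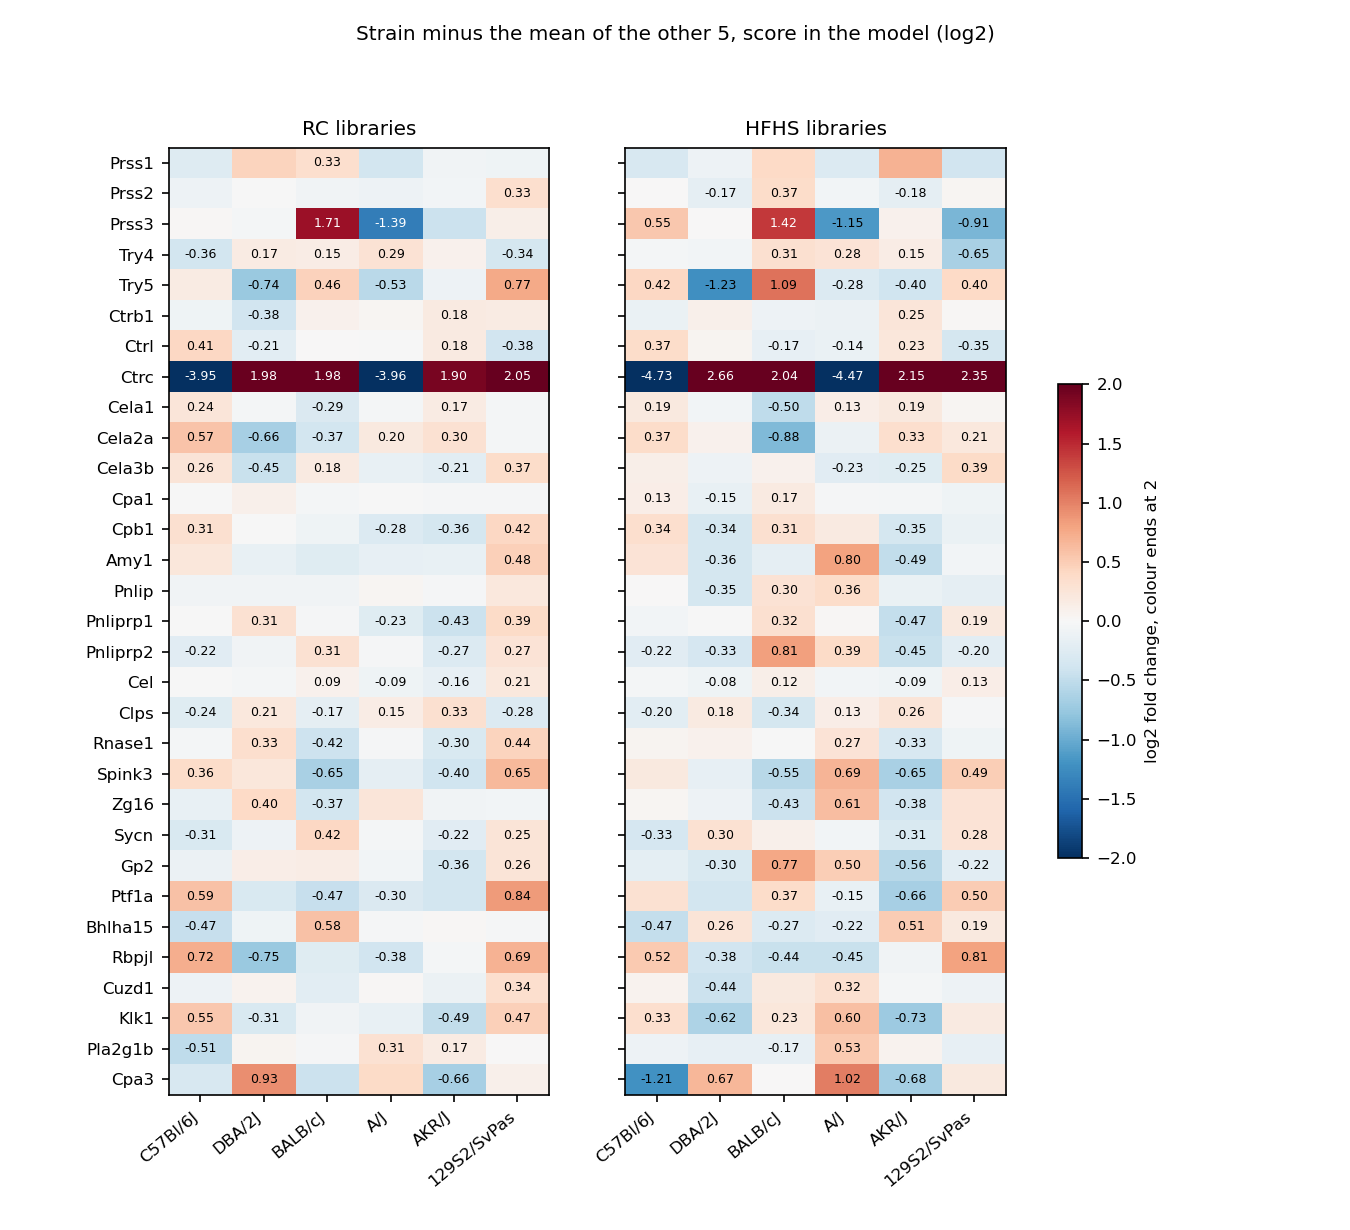
Heat map of the log2 difference of each strain from the mean of the other 5 with the acinar score in the fit, for the 31 members (rows) and 6 strains (columns) on RC and on HFHS; colours end at 2 log2 units either way and a number is printed where the adjusted p was under 0.05. Ctrc is the row that stands out, low in C57Bl/6J and A/J and high in the other 4 strains.

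Ctrc separated the strains. In C57Bl/6J its level was 0.290 CPM at the lowest, 1.74 at the median and 23.99 at the highest of the 51 libraries that matched their label, and the highest was 47.4 with the other 4 included. In A/J it was 0, 1.13 and 9.004 CPM (53 libraries). In 129S2/SvPas it was 17.9, 111.7 and 902 CPM in the 60 libraries that matched their label, and 0.136, 96.5 and 902 with the other 5 included. AKR/J had 1.50, 62.3 and 551 CPM, DBA/2J 2.30, 74.4 and 304, and BALB/cJ 7.73, 64.7 and 1999 (55 libraries each). Among libraries matching their label, the raw levels of C57Bl/6J overlapped those of all 4 of these strains, and the raw levels of A/J overlapped those of AKR/J, DBA/2J and BALB/cJ but not those of 129S2/SvPas. Cela1, in contrast, had medians of 602 CPM in C57Bl/6J and 276 in A/J, against 269 to 543 in the other 4 strains.

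Set against the score of the same library the overlap was gone. Among the libraries that matched their labelled strain, log2 CPM of Ctrc minus the score lay between -1.66 and 4.03 in those of C57Bl/6J and A/J, and between 4.20 and 6.75 in the 225 of the other 4. The medians differed 58.6-fold. Among the libraries that also kept within the GC bound the gap was wider, -0.735 to 3.51 in 94 against 5.57 to 6.75 in 203, and the medians differed by 5.93 log2 units, or 60.8-fold.

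**Figure D4:**
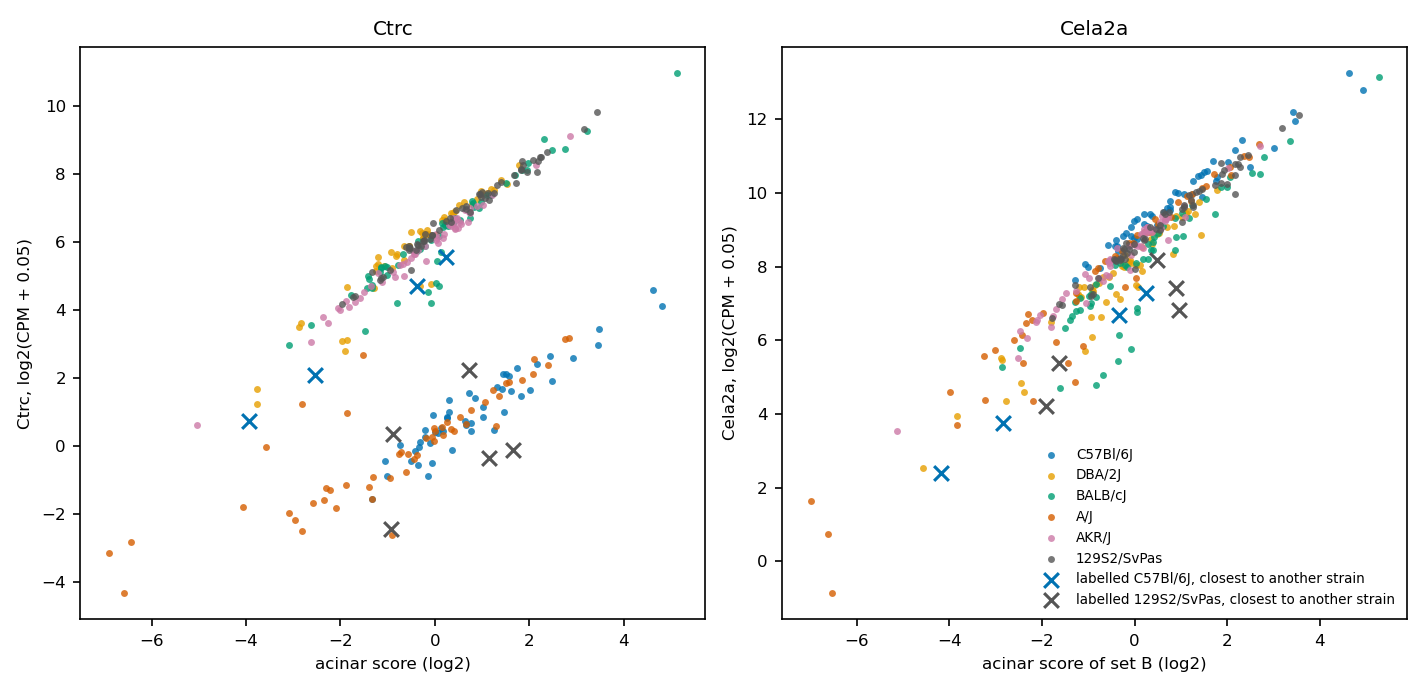
Level of Ctrc (left) and of Cela2a (right, against the score of the set that does not hold it) in each library, as log2 of CPM plus 0.05, against its acinar score in log2 units; colours are strains and crosses are the 9 libraries closest to a strain other than the labelled one. Ctrc forms 2 bands, with C57Bl/6J and A/J in the lower one and some A/J libraries of low score between them, and Cela2a shows no such split by strain.

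In the fit with the score on RC, Ctrc was lower by 3.95 log2 units in C57Bl/6J (log2 fold change -3.95, SE 0.22, adjusted p = 1.86e-47, edgeR) and at -3.96 in A/J (SE 0.25, adjusted p = 6.83e-38). In the other 4 strains it was higher, by 2.05 in 129S2/SvPas, 1.90 in AKR/J, and 1.98 in both DBA/2J and BALB/cJ. The SE of each was 0.14, and differences among the 4 were not tested. On HFHS the values were -4.73 in C57Bl/6J, -4.47 in A/J and 2.04 to 2.66 in the other 4. Since each strain was set against the other 5, the size of these values depends on how many strains are low. The fits also kept the libraries off their label. Among these, RC libraries labelled C57Bl/6J had 26.2 and 47.4 CPM of Ctrc, and those labelled 129S2/SvPas had 0.136 to 0.870 CPM. Fit values without them are not given here.

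All 9 libraries that did not match their label lay on the side of the split where their markers put them, but 8 of the 9 lay outside the range of that strain. The 4 labelled C57Bl/6J, 3 of which stood closest to 129S2/SvPas and 1 to BALB/cJ, had Ctrc minus score of 4.40 to 5.09. The 3 lay between 4.40 and 4.85, below the 5.61 to 6.67 of the 129S2/SvPas libraries that matched their label, and the other 1 lay at 5.09, within the BALB/cJ range of 4.20 to 6.68. The 5 labelled 129S2/SvPas, which stood closest to C57Bl/6J, had -1.69 to -1.26 in RC mice and 1.18 to 1.27 in HFHS mice, below and above the -0.735 to 0.988 of C57Bl/6J. Within A/J, 8 of 53 libraries had a value over 2. All 8 were of day 2 or 10, 6 were beyond the GC bound, 3 held 3 or fewer Ctrc reads and none had a score above -1.53.

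Prss3 differed less and the strains overlapped. Relative to the score, its lowest, median and highest values in libraries matching their label were -2.12, 1.23 and 3.69 in BALB/cJ and -3.09, -1.13 and 3.16 in A/J, and the medians of the other 4 strains lay between -0.844 in 129S2/SvPas and -0.140 in C57Bl/6J. With the score, Prss3 was higher by 1.71 log2 units in BALB/cJ (SE 0.18, adjusted p = 7.17e-18) and at -1.39 in A/J (SE 0.26, adjusted p = 1.13e-06, edgeR). Try4 and Try5 have transcripts 97.1% alike, and reads of the trypsinogens can have been lost or moved between copies in the alignment, so values of single trypsinogens are uncertain.

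Smaller differences below 2-fold remained for the regulators. With the score on RC, Bhlha15 was higher by 0.58 log2 units in BALB/cJ and at -0.47 in C57Bl/6J. Ptf1a was higher by 0.84 log2 units in 129S2/SvPas and 0.59 in C57Bl/6J. Its partner Rbpjl was higher in the same strains, by 0.69 and 0.72, and at -0.75 in DBA/2J. Relative to the score the medians of Rbpjl were 0.177 in 129S2/SvPas, -0.0314 in C57Bl/6J and -0.929 in DBA/2J. Try5 was 0.77 higher in 129S2/SvPas and at -0.74 in DBA/2J, and Cpa3 was 0.93 higher in DBA/2J and at -0.66 in AKR/J. All of these passed an adjusted p of 0.05 in edgeR. Spink3 was at 0.65 in 129S2/SvPas and at 0.16 without the libraries that did not match their labels.

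On the separate list of acinar genes the regenerating islet-derived gene Reg2 stood out among strains. With the score it was 3.14 log2 units higher in 129S2/SvPas (SE 0.25, adjusted p = 4.18e-27, edgeR) and at -3.48 in A/J (SE 0.48, adjusted p = 3.68e-11). Serpini2, a pancreatic serpin, was at -2.001 in 129S2/SvPas (SE 0.21), and Amy2b, a pancreatic amylase, was at -1.18 in C57Bl/6J (SE 0.14).

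Diet was compared at each day as HFHS minus RC, averaged over the 6 strains. At day 2, 11 of the 31 members were lower and none was higher, where 22.5% of all genes were lower and 18.5% higher. With all libraries in the fit the lower ones were mainly proteases. They were 4 of the 5 trypsinogens, all 3 chymotrypsinogens and 2 of the 3 elastases, against 0 of the 3 carboxypeptidases, Cpa3 included. Of the lipid-digesting members 1 of 6, Pla2g1b, was lower, and so was Rbpjl. The median log2 fold change over the members was -0.52, and -0.01 over all genes. The strains were unlike. Within A/J the median was -2.61 and 24 members were lower, whereas in AKR/J it was 0.92 and 28 of the 31 values were positive. It was -0.35 in C57Bl/6J, -0.20 in DBA/2J and -0.42 in BALB/cJ. In 129S2/SvPas it was -0.52, and 0.05 without the libraries off their label. On the separate acinar list 4 of 19 were lower and none higher.

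The largest day 2 values were those of Prss3 (log2 fold change -1.53, SE 0.33, adjusted p = 0.000179), Prss1 (-1.21, SE 0.34), Pla2g1b (-1.16, SE 0.28, adjusted p = 0.000979), Cela2a (-1.04, SE 0.31) and Ctrc (-1.005, SE 0.31), by edgeR. The score itself had a median of -0.148 in 40 HFHS mice and -0.103 in 36 RC mice of day 2, with lowest values of -6.90 and -1.88. The calls depended on the libraries that tilt with GC. Without the 41 libraries 2 members were lower (Prss1 at -1.15 and Prss3 at -1.40), and no chymotrypsinogen or elastase passed. With a correction for the tilt 6 were lower, Ctrl and Cela2a among them.

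At day 10 no member passed, where 0.946% of all genes did; 1 member had an unadjusted p under 0.05 in edgeR, and DESeq2 called 1. At day 30 Pla2g1b alone was lower (-0.98, SE 0.25, adjusted p = 0.00433), where 5.53% of all genes were lower. At day 90 Pla2g1b was lower (-0.67, SE 0.25, adjusted p = 0.0462; 6.79% of all genes lower) and Sycn was higher (0.77, SE 0.27, adjusted p = 0.0360; 9.78% higher). Sycn no longer passed without the 41 libraries (0.57, adjusted p = 0.224), with the correction for GC tilt (0.61, adjusted p = 0.0756) or without 1 AKR/J HFHS mouse of day 90 described further on, whereas Pla2g1b passed in each. Pla2g1b at day 90 missed the threshold with no filter on low counts (adjusted p = 0.0537, edgeR).

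With the score in the fit more members passed. At days 2, 10, 30 and 90, 8, 3, 6 and 5 members were higher and 8, 5, 7 and 10 were lower. The shares over all genes were 10.7%, 0.588%, 10.3% and 12.3% higher and 15.3%, 0.739%, 15.1% and 11.5% lower. None of these values reached 2-fold. Without the 41 libraries, which leaves 5 strains at day 2 because all BALB/cJ HFHS libraries of that day are among them, 9, 5, 8 and 5 members were higher and 13, 8, 12 and 12 were lower. The shares over all 17025 genes tested were then 12.5%, 3.52%, 20.4% and 11.7% higher and 8.02%, 3.3%, 18.4% and 12.6% lower. In this refit the call of Prss3 at day 2 exceeded 2-fold, at -1.06 (adjusted p = 0.00299, edgeR), where it was at -0.86 with all libraries. Of the 16, 8, 13 and 15 calls with all libraries, 13, 8, 13 and 13 were also made in the same direction without the 41. The calls not made again were those of Zg16, Klk1 and Rbpjl at day 2 and of Gp2 and Rbpjl at day 90. The granule protein Gp2 was at 0.41 at day 2 with all libraries and at 0.21 without the 41 (adjusted p = 0.000434), and Klk1 was at 0.76 and 0.14 (adjusted p = 0.0512, edgeR).

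Pla2g1b, the secreted phospholipase that digests phospholipid in the gut, was lower on HFHS at every day. Relative to the score its lowest, median and highest values at day 30 were 2.83, 3.46 and 3.98 in 48 RC mice and 1.83, 2.58 and 4.15 in 47 HFHS mice. At day 90 they were 2.19, 3.10 and 3.86 in 50 RC mice and 1.26, 2.33 and 3.86 in 49 HFHS mice. The groups overlapped, with the HFHS median below the RC median at all 4 days. With the score the log2 fold changes were -0.55, -0.69, -0.81 and -0.64 at days 2, 10, 30 and 90, and the highest of the 4 adjusted p-values was 5.29e-09 (edgeR).

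Within strains and days Pla2g1b was lower on HFHS in all 24 combinations, by values from -1.22 to -0.22 (median -0.62), and 11 of the 24 passed. Of 16498 genes, 0.0182% (3 genes) were lower in all 24. In the 15 combinations free of libraries beyond the GC bound or off their label it was lower in 15, from -1.15 to -0.28. Without the score it was lower in 18 of 24.

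Try4 and Ctrl were lower in 23 of the 24 combinations with the score, and 0.0849% of all genes were lower in at least 23. Both were lower in all 15 combinations free of doubted libraries. Try4 had a median of -0.41 and passed in 6. Cela1 was lower in 21 and passed in 7, with a median of only -0.14, and 0.436% of all genes were lower in at least 21. On the other side Cel and Sycn were higher in 22 combinations, among them all 15 without doubted libraries, and 0.133% of all genes were lower in 2 or fewer. Prss2 was higher in 20, where 0.63% of genes were lower in 4 or fewer, and Pnliprp1 was higher in 19, where 1.35% of genes were lower in 5 or fewer. These values are relative to the score, which is built from members. Without the score Try4 was lower in 18 of the 24, Cela1 in 17, Ctrl in 16 and Cel in 14. Sycn was then higher in 14, Prss2 in 13 and Pnliprp1 in 12. With the score Sycn passed as higher in 5, Cel and Pnliprp1 in 2 each and Prss2 in 1. Sycn, Pnliprp1 and Prss2 each passed as lower in 1.

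Sycn, the granule membrane protein syncollin, had with the score a log2 fold change of -0.00 at day 2, 0.34 at day 10, 0.61 at day 30 and 0.82 at day 90. The last 2 passed (adjusted p = 3.26e-07 and 5.14e-13, edgeR). Without the 41 libraries the values were 0.26, 0.38, 0.58 and 0.66, and all 4 passed, with a highest adjusted p of 6.29e-07 (edgeR). Relative to the score its lowest, median and highest values at day 30 were 5.09, 5.62 and 6.15 in RC mice and 5.37, 6.26 and 6.93 in HFHS mice. At day 90 they were 3.08, 5.83 and 6.54 on RC and 3.09, 6.58 and 7.33 on HFHS. The groups overlapped and the HFHS medians were the higher ones. Whether the diet effect differed between days was not tested.

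**Figure D5:**
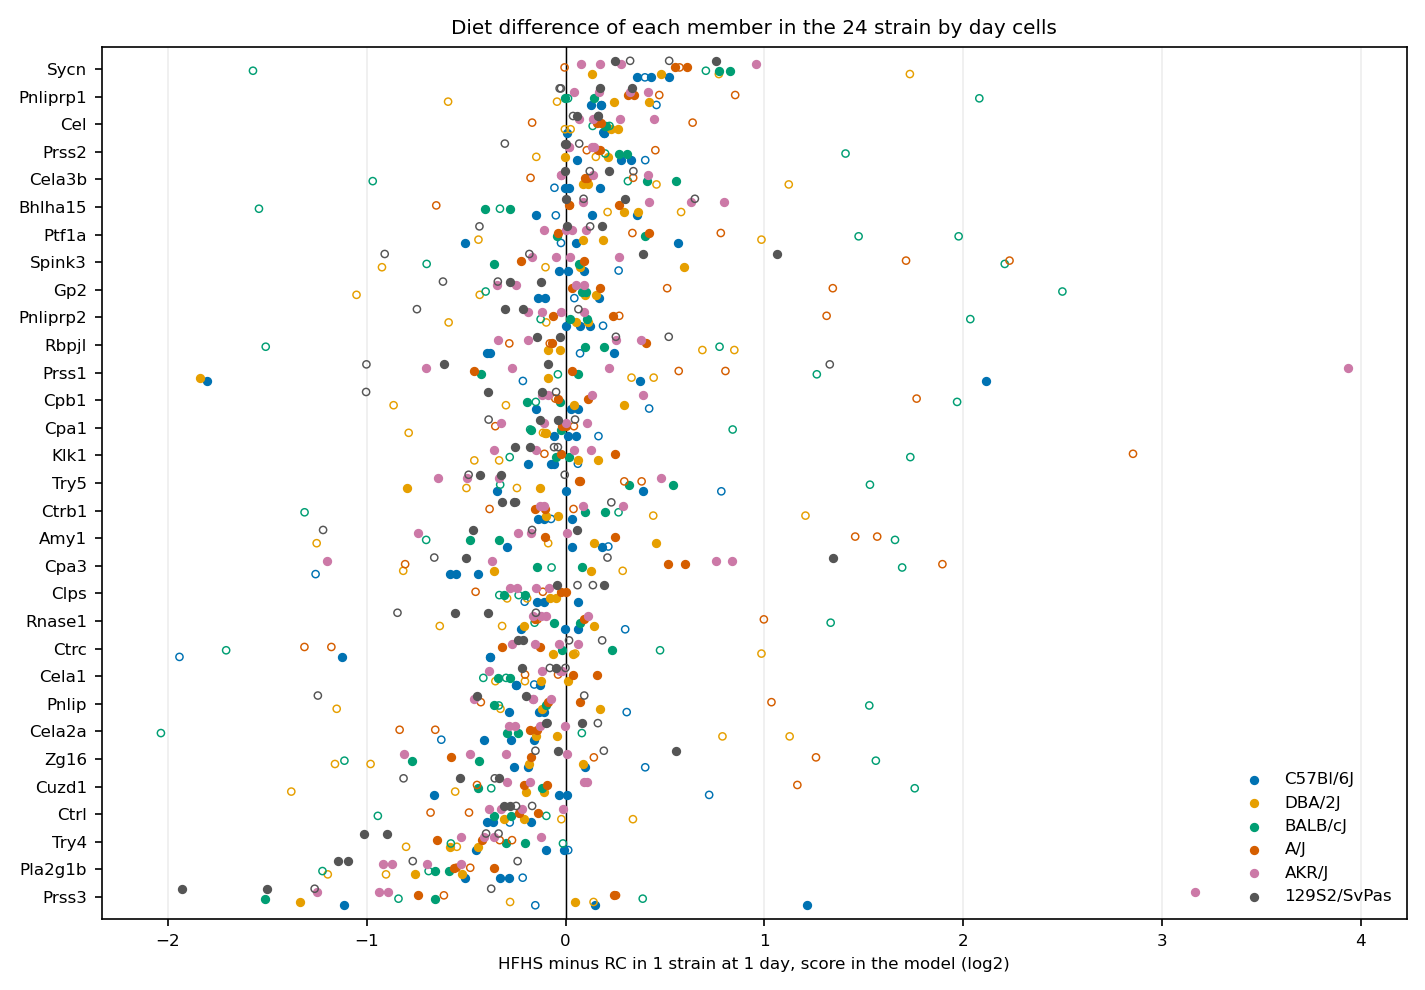
HFHS minus RC of each member (log2 units, with the acinar score in the fit) in the 24 combinations of strain and day; points are combinations coloured by strain, and open points hold libraries beyond the GC bound or closest to another strain than labelled. All 24 points of Pla2g1b are below 0, and 22 of 24 of Cel and of Sycn are above it.

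Within strains and days, without the score, 81 of the member comparisons (10.9%) passed, where 10.4% of all gene comparisons did, and 2 combinations held most of them. In A/J at day 2, 24 members were lower on HFHS, where 11.1% of all genes were lower. In BALB/cJ at day 10, 25 members were higher, by 2.06 to 4.55 log2 units, where 5.27% of all genes were higher. With the score 15.2% of the member comparisons and 9.57% of all passed. Of the member calls, 26 lay in BALB/cJ at day 2, 21 in DBA/2J at day 90 and 12 in 129S2/SvPas at day 2. A further 11 lay in A/J at day 10, 9 in DBA/2J at day 30, 6 in A/J at day 2 and 4 in BALB/cJ at day 10. All of these combinations hold libraries beyond the GC bound or off their label, and most member calls lay there. Among combinations free of such libraries the most was 8, in AKR/J at day 90. Whether members passed more often than all genes in those was not tested.

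Cela1 shows both. In A/J at day 2 it was 3.98, 140.9 and 291 CPM at the lowest, median and highest of 6 HFHS mice and 172, 323 and 2034 CPM in 5 RC mice. The difference was -2.99 (SE 0.77, adjusted p = 0.00197), and -0.04 with the score (adjusted p = 0.836, edgeR). In BALB/cJ at day 10 it was 70.5, 1516 and 7583 CPM in 6 HFHS mice and 49.4, 245 and 1229 CPM in 6 RC mice. That difference was 2.61 (SE 0.74, adjusted p = 0.00808), and -0.30 with the score. The ranges overlapped in both.

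The 6 BALB/cJ HFHS mice of day 10 had scores of 5.12, 3.22, 2.77, 2.48, -1.01 and -1.77, so 4 of the 6 were high. In A/J at day 2, 5 of 11 libraries were beyond the GC bound, and without the 41 libraries 2 members passed there. In BALB/cJ at day 10, 2 of 12 were beyond it and 25 members passed without them.

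In BALB/cJ at day 2 and DBA/2J at day 90 the direction of a member went with its exon GC content. All 6 BALB/cJ HFHS libraries of day 2 and 7 of 8 DBA/2J RC libraries of day 90 were beyond the GC bound. With the score, 8 of the 10 members of 54% GC or more were lower on HFHS in BALB/cJ at day 2 (median -1.27), and none of the 11 members under 51% was (median 1.76). In DBA/2J at day 90, 7 of those 10 were higher (median 0.28) and 0 of the 11 were (median -0.87). These combinations held 26 and 21 of the calls with the score. Diet and GC tilt cannot be told apart there.

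Over time on RC, day 90 was compared with day 2. Without the score 3 members passed, where 9.24% of all genes were higher and 14% lower. Prss3 was lower (log2 fold change -1.55, SE 0.31, adjusted p = 1.56e-05), Prss1 was lower (-0.97, SE 0.34, adjusted p = 0.0239) and Bhlha15 was higher (0.27, SE 0.08, adjusted p = 0.0113, edgeR). Relative to the score Prss3 had medians of 1.199, -0.0953, -0.419 and -0.634 on RC at days 2, 10, 30 and 90, with overlapping ranges. Without the 41 libraries Prss3 (-1.27) and Bhlha15 (0.25) still passed, Prss1 did not and Sycn did (0.80).

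With the score 13 members passed over time, where 10.9% of all genes were higher and 15.6% lower. The 3 that were higher were Cpa1 (0.17), Clps (0.26) and Bhlha15 (0.25). Of the 10 lower ones 4 were trypsinogens: Prss3 at -1.60, Prss1 at -0.92, Try4 at -0.61 and Try5 at -0.35. Pla2g1b stood at -0.60 and Rbpjl at -0.51. The other 4, Ctrb1, Cela3b, Cela1 and Ctrl, lay between -0.35 and -0.15. Without the 41 libraries 21 members passed, 5 higher and 16 lower, where 20.8% of all genes were higher and 16.2% lower. Of the 13 calls, 12 were made again in the same direction, and Ctrl moved from -0.15 to 0.01 (adjusted p = 0.890, edgeR).

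Whether the diet effect at day 90 differed between the 6 strains was tested by an F test in the same fit. It passed for 5 members, where 50.3% of all 16498 genes passed: Prss1 (adjusted p = 0.0124), Prss3 (0.0163), Amy1 (0.0277), Bhlha15 (0.0316) and Ctrc (0.0323, edgeR). The share was thus below that of all genes. In AKR/J the day 90 diet differences of these 5 were 3.72 for Prss1, 2.52 for Prss3, -1.69 for Amy1, -1.54 for Ctrc and 0.55 for Bhlha15. Pla2g1b was at -2.21 there but did not pass the interaction (adjusted p = 0.0897, and 0.0452 without the mouse described next, edgeR).

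The calls of Prss1 and Prss3 in AKR/J depended on a single animal. Prss1 was 0, 0.0714 and 27.6 CPM at the lowest, median and highest of the AKR/J HFHS mice of day 90, and 0, 0.0835 and 1.83 CPM in the RC mice. Prss3 was 0.0250, 0.345 and 52.9 CPM on HFHS and 0.626, 1.52 and 2.91 CPM on RC. The highest HFHS mouse was the same for both genes. Another HFHS mouse of this group had 4.63 CPM of Prss1 and 7.33 CPM of Prss3, also above the highest RC values. Without the highest mouse the AKR/J difference was 1.26 for Prss1 (adjusted p = 0.291) and -0.08 for Prss3 (adjusted p = 0.982). The interaction then had an adjusted p of 0.215 and 0.305 (edgeR).

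Over all libraries 6 had Prss1 above 2 CPM, and Prss3 was at 7.33 CPM or more in each of them. Ctrc lost its interaction call without the 9 libraries off their label (adjusted p = 0.121), within the GC bound (0.221) and with the correction for GC tilt (0.0514), and Amy1 lost it with that correction too (0.0776). limma on the deposited log2 table called none of the 5, with 3 members at an unadjusted p under 0.05. Bhlha15 passed in these 3 edgeR refits and without the AKR/J mouse.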

How the data were processed

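The authors deposited raw read counts per gene for the 172 HFHS and 166 RC libraries and a table of log2 normalised counts. TopHat 1.3.3, SAMtools 0.1.16, HTSeq 0.5.3p3, edgeR and the mouse build mm9 are named per the submitters' processing notes, without their roles. Per the labels, each library came from a separate mouse. The deposited log2 values served only an alternative fit.

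The counts were analysed with edgeR 4.0.16 in R 4.3.3: TMM scaling, filterByExpr (16498 of 21382 genes tested), 1 mean per group of strain, diet and day (48 groups), and robust quasi-likelihood F tests with Benjamini-Hochberg adjustment over all genes tested. A call needed an adjusted p under 0.05, and for strains also a 2-fold change. Fold changes used a prior count of 2, and each SE is the size of the log2 fold change over root F. The acinar score was added as a covariate in a second fit. CPM values are counts scaled to the same total of reads in genes, and CPM per kilobase divides them by exon length in GRCm38.p6. Low counts limit Prss1, Cpa3, Ptf1a, Rbpjl and Prss3 most. Libraries of 1 group did not agree within counting noise (1069 pairs, lowest chi-square per degree of freedom 4.37).

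Labels gave the groups. All 31 members could be named; from the separate acinar list up to 4 genes per comparison with the smallest p; and the 10 genes most like the score, of which 1 is not reported here. The members, lists, score and tests were chosen with earlier results of these data known. Alternatives were other scalings, filters, tools, left-out libraries and a correction for GC tilt. The fits with the score within the GC bound, within strains and days and over time, the strain fits on HFHS and those without 1 AKR/J mouse were chosen after seeing the data. limma 3.58.1 and DESeq2 1.42.0 served as other tools, and the test scripts were tested on simulated data.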

Additional observations from a re-analysis of the deposited data

Results flagged for a closer look

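Among mice of the same group, 2 scores stood far from the others of their group in 47 groups tested. An AKR/J RC mouse of day 90 (replicate 48) had a score of 2.86, where the other 7 lay between 0.0308 and 1.21. A BALB/cJ HFHS mouse of day 90 (replicate 46) had 2.32, where the next was at 0.218.

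For Ctrc minus the score, 5 mice did so in 47 groups. They were at 6.67 in 129S2/SvPas HFHS of day 90 (replicate 99), 3.95 in A/J RC of day 2 (replicate 6), 5.57 in AKR/J HFHS of day 30 (replicate 25), 6.31 in AKR/J RC of day 90 (replicate 48) and 0.025 in a C57Bl/6J RC mouse of day 2. Of these the A/J value was the only one nearer to the band of the other strains than to its own group, whose other 4 values lay between 0.527 and 0.623. Chance flags about 1 in 20 groups.

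The diet effect at day 90 differed between strains for Prss1 (adjusted p = 0.0124), Prss3 (adjusted p = 0.0163), Amy1 (adjusted p = 0.0277), Bhlha15 (adjusted p = 0.0316) and Ctrc (adjusted p = 0.0323) in edgeR. The first 2 were not called without 1 AKR/J HFHS mouse.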

How the results depend on the processing

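The called strain values of at least 0.6 with the score kept their sign in all refits with other scalings, filters, scores or libraries and lost the call in 6 of them. The called diet values averaged over strains also kept their sign and lost the call in 30 refits. Other values did change sign: AKR/J Prss3 at day 90 went from 2.52 to -0.08 without 1 mouse, Cela1 in BALB/cJ at day 10 from 2.61 to -0.30 and Cela2a in 129S2/SvPas from 1.09 to -0.04 with the score, and Ctrl over time from -0.15 to 0.01 with the score within the GC bound. For diet at day 2 (11 in the report) there were 2 within the GC bound, 6 with the GC correction and 17 with limma on the deposited log2 table. At day 10 (0) there were 1 with DESeq2 and 8 with the score. At day 30 (1) there were 2 without the libraries off their label, 2 within the GC bound, 2 with DESeq2, 3 with limma, 3 with the day's samples alone and 13 with the score. At day 90 (2) there were 15 with the score and 1 with no filter, within the GC bound, with the GC correction, with limma, with the day's samples alone and without the AKR/J mouse. With the score within the GC bound, diet counts were 22, 13, 20 and 17 at the 4 days. Over time the count of 3 became 13 with the score and 21 with the score within the GC bound. The interaction gave 3 with the GC correction and 0 with limma (3 at an unadjusted p under 0.05). Without the fold threshold the strain calls on RC were 83, and 97 with the score. The cause of these shifts was not tested.

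Leaving out in turn each of the 24 mice in groups of 4 or 5, all of day 2 or 10, gave 8 to 14 calls for diet at day 2, 0 to 0 at day 10, 1 to 1 at day 30, 2 to 2 at day 90, 2 to 3 over time, 5 to 5 for the interaction, 73 to 86 within strains and days and 23 to 47 between strains on RC, where the lowest came without 1 129S2/SvPas RC mouse of day 10. No mouse of day 30 or 90 was left out in turn, so the counts at those days and for the interaction were hardly tried. Without the AKR/J HFHS mouse of day 90, 4 members passed the interaction and Prss1 and Prss3 were no longer among them. This was not run for the fits with the score, and DESeq2 was not run for the interaction.

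RC and HFHS mice of a strain and day share some replicate numbers, and the labels do not say that these numbers pair mice. Of such pairs, 9 of 22, 6 of 21, 3 of 31 and 16 of 30 at days 2, 10, 30 and 90 had a correlation of deviations over 0.1. The median correlations were 0.0625, -0.048, -0.0589 and 0.109. Pairs with unlike numbers were not compared, so these values cannot decide on pairing. With a replicate block, diet calls were 0, 0, 3 and 1 at the 4 days, and 1, 0, 13 and 1 for the same mice with no block. The blocked counts of 0 had 5 and 0 members at an unadjusted p under 0.05 (edgeR).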
